A study of Homo sapiens with 8 samples.

Results

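The genes described here are 38 genes of the integrated stress response, of amino acid synthesis and transport, and of the unfolded protein response, followed through 8 RNA libraries of IMR90 cells, a human fetal lung fibroblast line. They were taken by symbol from the 57736 genes that the deposited tables list, by a fixed list of names rather than a threshold on values, and all 38 were found. The RNA-seq compared 1 control library (Ctrl) with 1 from cells depleted of ADAR1 (KD), an RNA editing enzyme encoded by ADAR that turns adenosine into inosine where RNA is double-stranded. RNA immunoprecipitation (RIP) was done in 3 lines, shControl, shADAR1 and shHuR, and each line gave 1 input library and 1 library of RNA precipitated with an antibody against HuR. HuR (gene ELAVL1) is an RNA-binding protein with affinity for AU-rich stretches in 3′ untranslated regions. The labels name the short hairpin RNA of each RIP line but not the agent of the RNA-seq knockdown, and they describe no stress treatment or mock precipitate. Each group held 1 library, so a difference between a pair of libraries has no replicate check.

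Cells answer amino acid shortage, unfolded protein in the endoplasmic reticulum (ER) and other stresses through kinases that phosphorylate the translation factor eIF2α. Phosphorylated eIF2α lowers general protein synthesis while it favours translation of the transcription factor ATF4, which turns on amino acid transporters, enzymes of serine and asparagine synthesis, and regulators such as DDIT3 (CHOP), ATF3 and TRIB3. The ER has further sensors, ERN1 (IRE1) and ATF6, which raise chaperones such as HSPA5 (BiP) through the transcription factor XBP1 and through ATF6 itself. In fibroblasts these programmes set how much amino acid, glutathione precursor and secreted protein a cell can make.

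Stretches of sequence are shown first because HuR binding is the measured property of these mRNAs. The 4 members with the highest ratio of precipitate to input in shControl were SLC38A2, ERN1, DNAJB9 and SLC7A11. For each, the 30-base window of the 3′ untranslated region with the most AUUUA pentamers (ATTTA in DNA letters) is printed 5′ to 3′ on the mRNA strand, with the pentamers in capitals, from GENCODE 29 transcripts on GRCh38.
SLC38A2, chr12:46358425-46358454, minus strand: ATTTAaaATTTAaataaggaatacattttc
ERN1, chr17:64039630-64039659, minus strand: ATTTATTTAacctATTTAtATTTATTTAat
DNAJB9, chr7:108574762-108574791, plus strand: ATTTAttctgttatATTTAtgtaacttatt
SLC7A11, chr4:138169531-138169560, minus strand: ATTTATTTAtttttgatttgaatttctctt
The ERN1 window held 5 pentamers, counting overlapping ones, and the other windows held 2 each. A window with at least 5 was present in 16 of 11766 genes (0.136%), and one with at least 2 in 24.3%. These are matches of letters, not measured binding sites. For SLC38A2 and ERN1 the RNA measured may be shorter than the annotated region, a limit given below with the pentamer numbers.

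Elements by which ATF4 and the ER sensors are known to act were looked for in RefSeq promoter windows of 300 bases (250 before to 50 after the gene start, GRCh38.p14), on both strands. Windows were present for 31 of the 38 genes; those not matched were PYCR1, SHMT2, PSPH, ALDH1L2, NUPR1, SLC7A11 and EIF2AK1. The core TGATGCAA of the element bound by ATF4 with C/EBP proteins was in the windows of CHAC1, HERPUD1, CEBPG and SLC1A5. These were 4 of the 46 windows of the members, against 0.866% of all 35116 windows. Looser forms of this element were not searched, so a window without the exact core may still hold one. The ER stress element, CCAAT and CCACG separated by 9 bases, was in 2 member windows, of HSPA5 and XBP1, against 0.0769% of all windows. The core TGACGTGG, an element of the unfolded protein response whose opposite strand begins with CCACG, was in no member's window and in 0.729% of all windows. The pieces below carry the elements in capitals. They are shown because none of these 6 genes was called in a comparison of RNA level, where their log2 ratios ran from -0.92 (CHAC1) to 0.86 (HSPA5).
CHAC1, chr15:40953242-40953289, plus strand: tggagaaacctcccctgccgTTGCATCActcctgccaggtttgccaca
HERPUD1, chr16:56931946-56931993, plus strand: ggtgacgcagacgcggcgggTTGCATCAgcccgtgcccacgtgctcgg
CEBPG, chr19:33374051-33374098, plus strand: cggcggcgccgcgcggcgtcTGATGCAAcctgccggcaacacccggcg
SLC1A5, chr19:46784884-46784931, minus strand: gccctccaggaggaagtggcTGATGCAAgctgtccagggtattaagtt
HSPA5, chr9:125241371-125241429, minus strand: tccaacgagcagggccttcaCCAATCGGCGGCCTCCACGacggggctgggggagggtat
XBP1, chr22:28800583-28800641, minus strand: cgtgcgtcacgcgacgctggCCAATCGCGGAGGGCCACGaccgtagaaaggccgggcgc
In CHAC1 and HERPUD1 the ATF4 element lies on the opposite strand, so the capitals are its reverse complement. All 6 lie before the gene start, from -209 in CHAC1 to -42 in CEBPG.

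Total counts ran from 28390935 to 50711218 per library, and the 38 genes took 0.313% to 0.549% of them. The targeted genes were low where the labels say so: the RNA-seq knockdown held 7.01-fold less ADAR, the shADAR1 input 2.96-fold less ADAR, and the shHuR input 6.65-fold less ELAVL1. All 8 fibroblast markers were detected, at a summed level of 2450 to 12300 CPM (counts scaled to a common library total). The summed epithelial (5 genes), endothelial (3 genes) and leukocyte (5 genes) markers reached 222, 78.2 and 47.3 CPM at most. CDH5 and CD3E were at 0 in every library and CDH1 at 0 to 18 counts. Others were detected in the libraries without precipitation: KRT18 at 1005 to 9564 counts, TEK at 641 to 3930 and CD68 at 758 to 2393. CD14 had 1, 152 and 15 counts in the shControl, shADAR1 and shHuR inputs. In the values below, a ratio is that of counts scaled by the trimmed mean of M values (TMM), and its interval, at 95%, covers counting error only. Calls of higher and lower required a 2-fold difference and, in either library of the pair, a minimum of 50 counts, which every one of the 38 genes reached in each comparison.

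Length-normalized levels placed SLC38A2, a sodium-coupled transporter of small neutral amino acids, first among the 38 genes, at 438 FPKM (fragments per kilobase of transcript, scaled to depth) in the Ctrl library and 330 in the KD library. ATF4 itself came second, with 213 and 187 FPKM. The least abundant were CTH, which makes cysteine from cystathionine, at 0.86 FPKM, and ERN1 at 1.17 FPKM in the control. SLC7A11 stood 35th of 38 in the control, at 1.62 FPKM, and reached 19.6 FPKM in the knockdown.

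Knockdown of ADAR1 in the RNA-seq experiment went with more RNA of a few transport and feedback genes, and the bulk of the group stayed within 2-fold. Of the 38 genes, 5 were called higher (13.2%) and 3 lower (7.89%), against 8.31% and 7.71% of the 13235 genes with enough counts. The median log2 ratio of the 38 was 0.19, against -0.01 over all genes. The shares of the group were thus near the background on the lower side and somewhat above it on the higher side.

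SLC7A11, the light chain of the cystine-glutamate exchanger that feeds glutathione synthesis, showed the largest difference. Its counts were 572 in the control and 7626 in the knockdown, a 10.2-fold higher level (log2 3.35, interval 3.22 to 3.47). SLC3A2, the heavy chain that carries this and other exchangers to the membrane, had 2234 and 7372 counts and was 2.52-fold higher. SLC7A5, which pairs with the same heavy chain to import large neutral amino acids, had 399 and 536 counts and a log2 ratio of 0.04, with an interval that spans 0 (-0.15 to 0.23). The cationic amino acid transporter SLC7A1 and the glutamine transporter SLC1A5 had log2 ratios of 0.74 and 0.81, short of the limit, and SLC38A2 had -0.42. The 6 transporters had a median log2 ratio of 0.78, with 5 of 6 above 0.

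Among the regulators, ATF3, a stress-induced repressor and activator of transcription, had 82 and 233 counts and was 2.17-fold higher. With trends over GC content and length removed its log2 ratio was 0.93, below the limit. NUPR1, a small stress-induced chromatin protein, had 391 and 1404 counts and was 2.74-fold higher. ATF4 RNA was nearly level, with 10008 and 11791 counts (log2 -0.15, interval -0.19 to -0.11), and DDIT3 had 549 and 522 counts (-0.46). ATF4 is controlled mainly at translation, which RNA counts do not measure. PPP1R15A (GADD34), the stress-induced subunit that directs a phosphatase to eIF2α, had 4412 and 12875 counts and was 2.23-fold higher. The kinases of eIF2α, namely EIF2AK1 (HRI), EIF2AK3 (PERK) and EIF2AK4 (GCN2), lay between -0.10 and 0.23 on the log2 scale.

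The 3 lower genes were DDIT4, VLDLR and CBS. DDIT4 (REDD1), an inhibitor of the growth kinase complex mTORC1, had 1355 and 683 counts, 2.6-fold lower. VLDLR, a lipoprotein receptor known as an ATF4 target, had 729 and 318 counts and was 3-fold lower. CBS, which makes cystathionine from homocysteine and serine, had 518 and 331 counts and was 2.05-fold lower. None of the 6 serine and one-carbon enzymes and none of the 6 ER genes was called, with log2 ratios of -0.23 (ALDH1L2) to 0.70 (PHGDH) and -0.26 (ERN1) to 0.51 (DNAJB9).

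**Figure D1:**
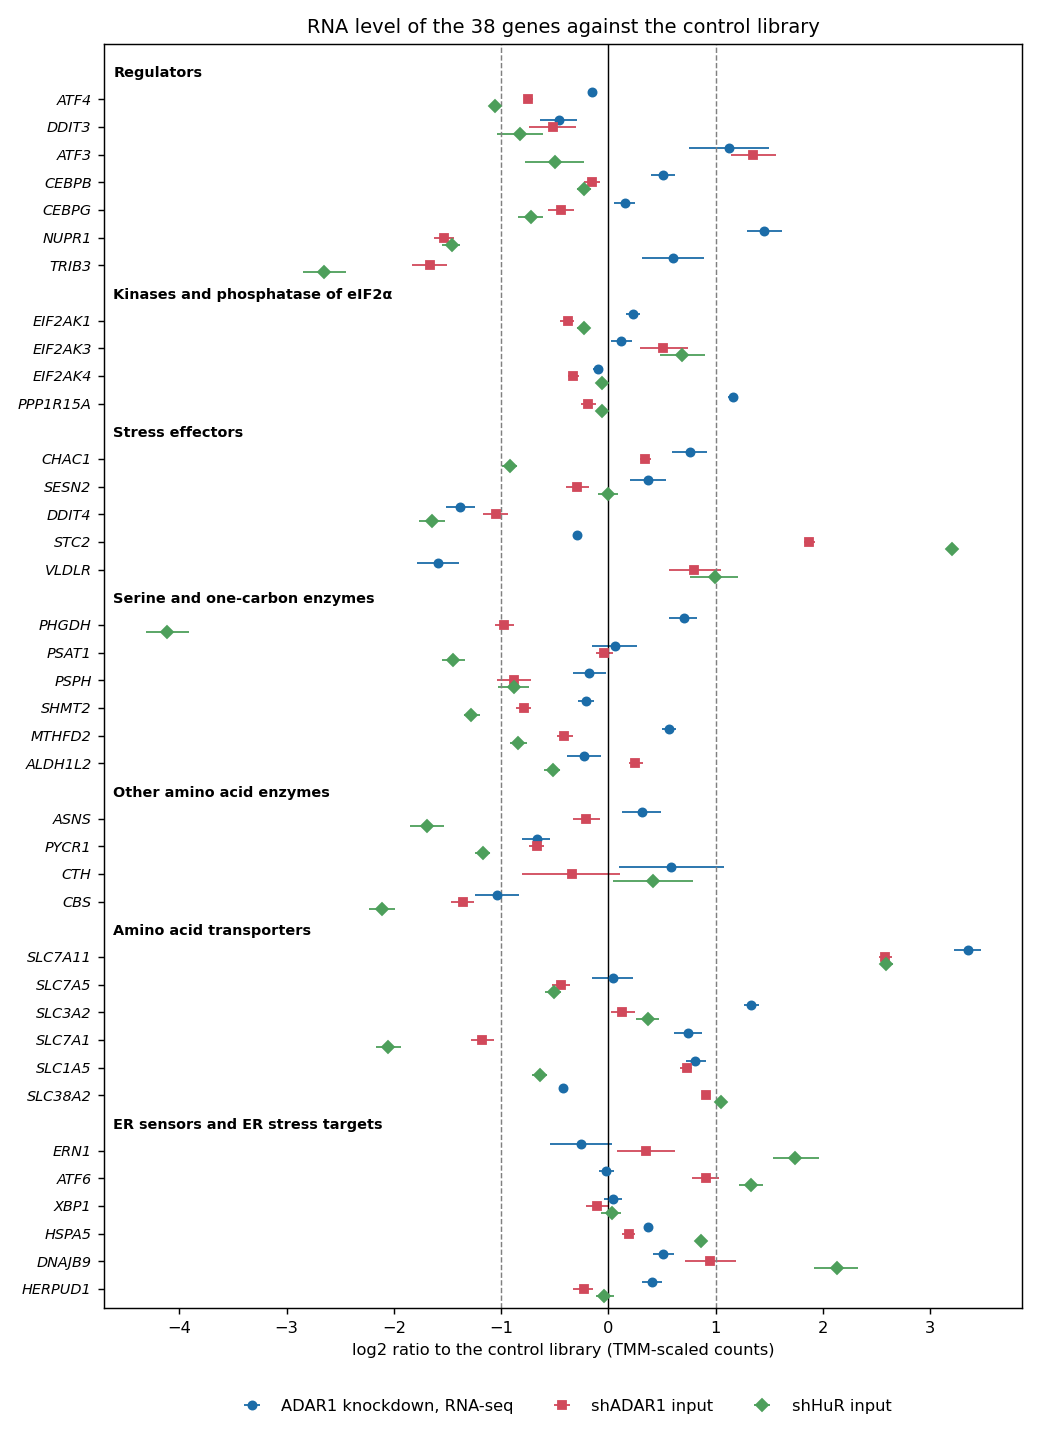
Each row is 1 of the 38 genes, ordered by role, and the horizontal axis is the log2 ratio of TMM-scaled counts to the control library of the same experiment, with bars for the 95% counting interval and dashed lines at 2-fold. SLC7A11 lies to the right in all 3 comparisons, while the farthest points are PHGDH at -4.11 in the shHuR input on the left and SLC7A11 at 3.35 in the RNA-seq on the right.

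The shADAR1 input, from the RIP experiment, often differed in sign from the RNA-seq, for these genes as for all genes (shares below). It was compared with the shControl input, and 3 genes were called higher and 5 lower, against 8.94% and 10.6% of all genes. As shares of the 38 these are 7.89% and 13.2%, close to the background, and the median log2 ratio was -0.22 against -0.04. SLC7A11 had 2456 counts in shControl and 10588 in shADAR1, 5.98-fold higher (log2 2.58, interval 2.52 to 2.64). ATF3 had 284 and 522 counts and was 2.55-fold higher. STC2, a secreted glycoprotein induced by ER stress, had 3932 and 10389 counts and was 3.67-fold higher, whereas in the RNA-seq its log2 ratio was -0.29.

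TRIB3, a pseudokinase that ATF4 induces and that damps its activity, was lowest in relative terms, at 1673 and 381 counts (3.17-fold lower). NUPR1 went from 4299 to 1071 counts (2.89-fold lower), opposite to its direction in the RNA-seq. CBS had 3173 and 893 counts (2.56-fold lower), and SLC7A1 had 3044 and 969 counts (2.26-fold lower). DDIT4 had 2407 and 836 counts and was 2.08-fold lower; with GC and length trends removed its log2 ratio was -0.55, so that call ended. All 4 of the other amino acid enzymes and 5 of 6 serine and one-carbon enzymes were below 0, but only CBS passed the limit. PHGDH, the first enzyme of serine synthesis, had 4079 and 1502 counts (log2 -0.97), and with scaling by total counts it reached -1.07.

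The 2 ADAR1 knockdown experiments share no library, so their directions can be set side by side. Of the 38 genes, 16 (42.1%) had the same sign in both, close to the 45.6% of 11986 genes, so this share is not particular to the group. SLC7A11 and ATF3 were called higher in both, DDIT4 and CBS were called lower in both, and NUPR1 was called in opposite directions. Tested over the 4 libraries with edgeR's quasi-likelihood test and the experiment as block (1 residual degree of freedom), 0 of the 38 genes passed the adjusted threshold, against 13 rising (0.0813%) and 2 falling (0.0125%) of 15994 genes. SLC7A11 had a log2 change of 2.96 (SE 0.49), higher in 2 of 2 experiments, and an adjusted p of 0.0672. Its adjusted p over the alternatives ran from 3.71e-08 with DESeq2 through 4.41e-06 in edgeR without a filter on low counts to 1 without the block. Unadjusted p-values under 0.05 were found for 4 members, against 4.76% of all genes, and DESeq2 called 1 member, SLC7A11. The other 3 were ATF3 (log2 1.24, SE 0.50, edgeR adjusted p 0.976), DDIT4 (-1.21, SE 0.42, edgeR adjusted p 0.807) and CBS.

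**Figure D2:**
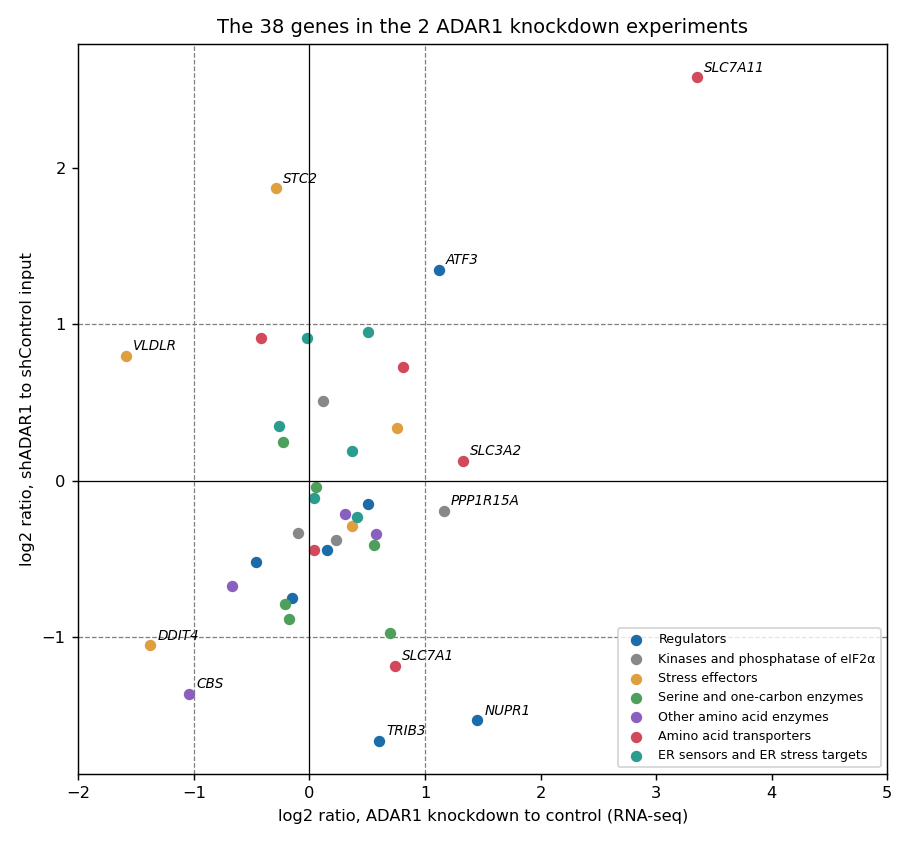
The horizontal axis is the log2 ratio of ADAR1 knockdown to control in the RNA-seq and the vertical axis that of shADAR1 to shControl input, 1 point per gene coloured by role, with dashed lines at 2-fold. SLC7A11 and ATF3 are at the upper right, DDIT4 and CBS at the lower left, and NUPR1 at the lower right.

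The most calls on RNA level in the group came from the HuR knockdown. In the shHuR input 6 of the 38 genes were called higher (15.8%) and 11 lower (28.9%), against 12% and 15.9% of all genes, and the median log2 ratio was -0.50 against -0.03. The shControl input is the reference here as for shADAR1, so the 2 comparisons are not independent, and the values of each are given for the same genes. With GC and length trends removed the calls were 5 higher and 9 lower. The lower calls held 6 of the 10 enzymes of amino acid and one-carbon metabolism, and the higher calls held 3 of the 6 ER genes.

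Serine synthesis showed the largest single difference. PHGDH had 4079 counts in shControl and 221 in shHuR, a 17.2-fold lower level (log2 -4.11, interval -4.31 to -3.91). PSAT1, the next enzyme of the same path, had 2933, 2055 and 1004 counts in the shControl, shADAR1 and shHuR inputs and was 2.72-fold lower in shHuR. SHMT2, the mitochondrial enzyme that splits serine into glycine and a one-carbon unit, had 5548, 2318 and 2135 counts and was 2.42-fold lower in shHuR; its log2 ratio was -0.93 with GC and length trends removed. PSPH, MTHFD2 and ALDH1L2 had log2 ratios of -0.88, -0.84 and -0.52 in shHuR, so that all 6 genes of this role were below 0, with a median of -1.08.

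The other amino acid enzymes were low as well, apart from CTH. ASNS, asparagine synthetase, had 1393, 870 and 403 counts in the 3 inputs and was 3.22-fold lower in shHuR. CBS had 686 counts in shHuR and was 4.31-fold lower, and PYCR1, the last enzyme of proline synthesis, had 5882, 2664 and 2439 counts and was 2.25-fold lower. PYCR1 kept its direction but not its call with GC and length trends removed (-0.56). CTH had 111, 63 and 138 counts, and its log2 ratio in shHuR was 0.42. GENCODE 29 annotates 44.6% of the exon length of ASNS, 41.2% of DDIT4, 39.6% of DDIT3, 33.2% of MTHFD2, 29.7% of PYCR1 and 23.8% of SLC1A5 as shared with other genes. CEBPB (11.8%), SLC7A11 (9.0%) and VLDLR (7.9%) share less, each with an antisense gene; with the strand setting of the counting not known, reads of such partners cannot be told apart. Genes named as copies of MTHFD2 reached at most 395 counts in a library, and those of ATF4, ASNS and PSAT1 at most 16, 7 and 1.

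All 7 regulators were at or below a log2 ratio of -0.23 in shHuR, but CEBPB, the gene at -0.23, stood at 0.56 with GC and length trends removed. TRIB3 had 249 counts there and was 6.26-fold lower than in shControl, and NUPR1 had 1455 and was 2.76-fold lower. ATF4 had 12356, 5304 and 5509 counts in the shControl, shADAR1 and shHuR inputs, 2.09-fold lower in shHuR (log2 -1.06) and -0.75 in shADAR1. With GC and length trends removed, ATF4 stood at -0.89 in shHuR. DDIT3 had 515, 259 and 272 counts, and ATF3 had 187 in shHuR, where its log2 ratio was -0.50. Of the stress effectors, DDIT4 had 718 counts in shHuR and was 3.13-fold lower, while STC2 had 33773 and was 9.21-fold higher (log2 3.20, interval 3.16 to 3.25).

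Transporters split. SLC7A11 had 13770 counts in shHuR and was 6.01-fold higher, nearly the same ratio as in shADAR1. SLC38A2 had 19431, 26276 and 37571 counts in the 3 inputs and was 2.07-fold higher in shHuR; the log2 ratio was 0.86 with GC and length trends removed. SLC7A1 had 684 counts in shHuR and was 4.15-fold lower. ER genes included no lower call. DNAJB9, an ER co-chaperone, had 250, 348 and 1017 counts and was 4.36-fold higher in shHuR. ERN1 had 243, 223 and 758 counts and was 3.35-fold higher, and ATF6 had 928, 1253 and 2179 counts and was 2.52-fold higher. HSPA5 had 5316, 4379 and 8991 counts (log2 0.86), whereas XBP1 and HERPUD1 were level, at 0.03 and -0.04. The 6 ER genes had a median log2 ratio of 1.09. In bulk RNA a change in the make-up of the culture and a change in RNA per cell cannot be told apart.

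**Figure D3:**
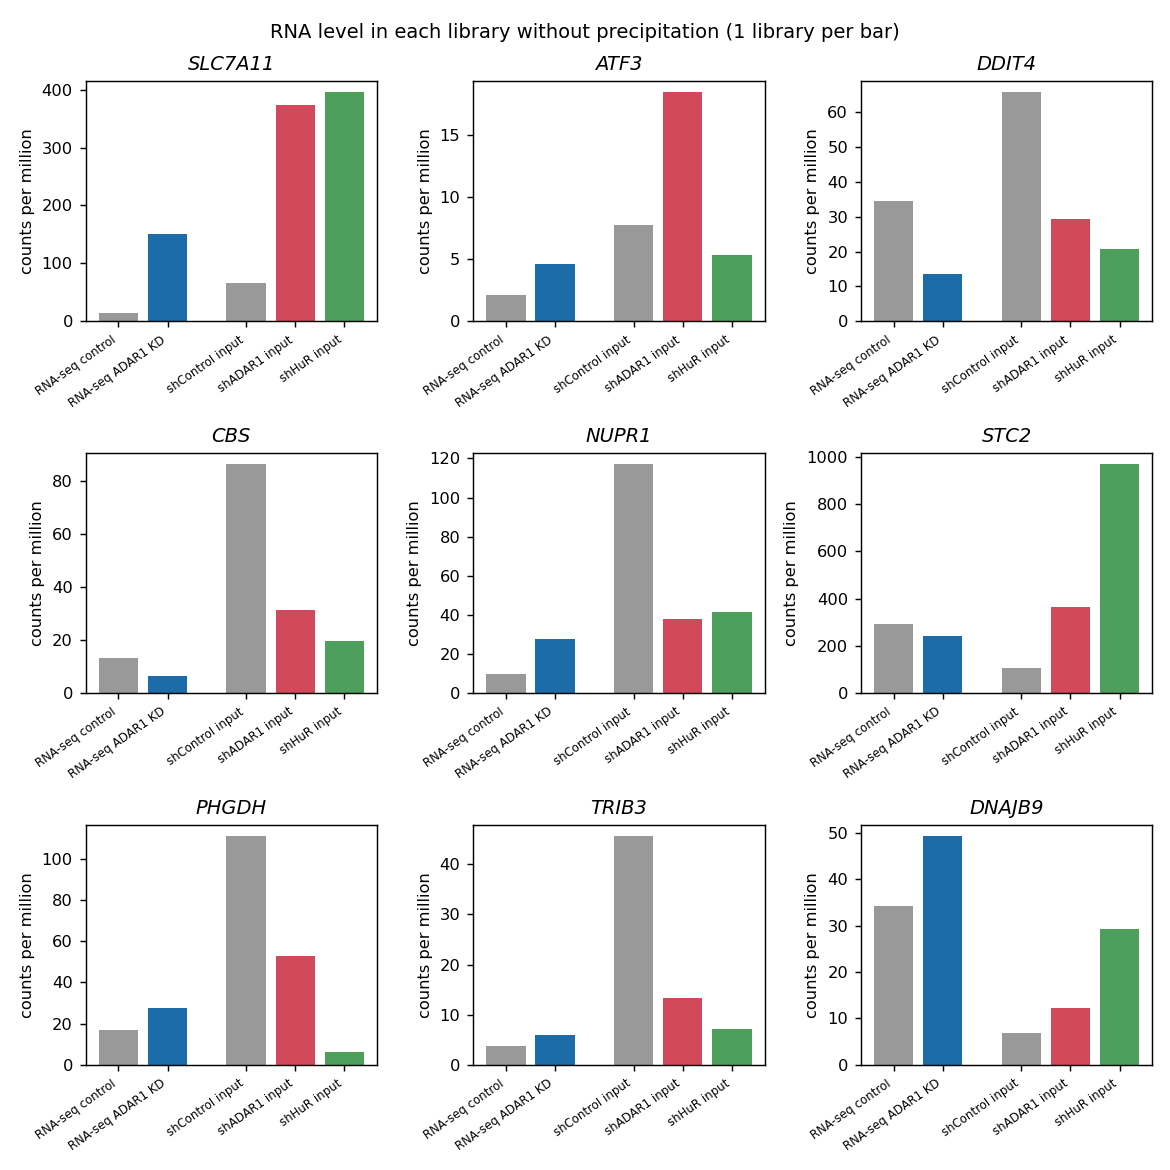
Bars give CPM in each of the 5 libraries made without precipitation, 1 library per bar, for 9 genes, with the axis of every panel starting at 0. PHGDH, TRIB3, NUPR1 and CBS are tallest in the shControl input, and SLC7A11 is low in both control libraries.

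The reference library matters for these readings. On the CPM scale, the shControl input held at least 2-fold more than the RNA-seq control for 18 of the 38 genes and at least 2-fold less for 6, against 4125 and 3210 of 13144 genes. The median log2 ratio between these controls was 0.90 for the 38 genes and 0.08 over all of them. Regulators (1.87), serine and one-carbon enzymes (1.97) and other amino acid enzymes (2.24) were the roles with high medians, together with transporters (2.01), whereas ER genes stood at -0.10. TRIB3, for example, was at 3.83 CPM in the Ctrl library of the RNA-seq, 45.6 in the shControl input, 13.4 in shADAR1 and 7.14 in shHuR. PHGDH was at 16.8, 111, 52.9 and 6.34 in the same order. The controls come from different experiments, with 1 library each, so culture, library and experiment cannot be told apart, and the part of the shControl level in the lower calls was not tested. The summed epithelial markers, mostly KRT18, were at 114 and 222 CPM in the RNA-seq control and knockdown and at 120, 52.2 and 54.9 CPM in the shControl, shADAR1 and shHuR inputs, the same order as NUPR1 in each experiment between control and ADAR1 knockdown. The summed endothelial markers, mostly TEK, were at 52.3 and 78.2 CPM in the RNA-seq and at 19.4, 73.1 and 37 CPM in the 3 inputs, higher in each knockdown, as SLC7A11 was. Single markers did not all follow these sums. VWF had 70, 25 and 21 counts in the 3 inputs, lower in each knockdown. EPCAM had 136 and 103 counts in the RNA-seq control and knockdown, where KRT8, KRT18 and CLDN4 were higher in the knockdown. The part of either list in these results was not tested.

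Other genes of these pathways were followed on 4 lists. Cytosolic aminoacyl-tRNA synthetases, which charge transfer RNAs and include several ATF4 targets, gave 0 calls of 20 in the RNA-seq knockdown, 0 in shADAR1 and 1 lower call in shHuR (QARS1, 2.27-fold; log2 -0.96 with GC and length trends removed). Further ATF4 and amino acid genes gave 1 higher and 3 lower calls of 20 with enough counts in the RNA-seq, 5 lower of 22 in shADAR1 and 9 lower of 22 in shHuR, with medians of 0.09, -0.64 and -0.60. GDF15, a secreted stress hormone, was 3.14-fold higher in the RNA-seq knockdown. The glycine transporter SLC6A9 was 17.4-fold lower in shHuR (670 and 36 counts), and EIF4EBP1, a translation inhibitor, was 6.03-fold lower there (2653 and 410 counts). Among 25 ER folding and degradation genes with enough counts, 0 were called in the RNA-seq, 2 higher and 1 lower in shADAR1, and 4 higher and 0 lower in shHuR, where the median was 0.57. The 4 were WFS1 (3.08-fold), CANX (2.17-fold), DERL1 (2.13-fold) and ERO1B (2.05-fold), of which WFS1 alone stayed past 2-fold with GC and length trends removed (CANX 0.97, DERL1 0.93 and ERO1B 0.80 on the log2 scale). The list of eIF2, its exchange factor and further genes set beside them, 12 in all, gave 1 lower call in the RNA-seq and none in either input. That call was IBTK, which is a subunit of neither factor (2.05-fold; log2 -0.37 with GC and length trends removed).

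Recovery with the HuR antibody separated the 38 genes widely. In shControl the ratio of precipitate to input called 10 genes enriched and 19 depleted, against 28.9% and 40.3% of all genes, so that 26.3% and 50% of the group stood past 2-fold. In shADAR1 the counts were again 10 and 19 (background 30% and 37.5%), and in shHuR 6 and 12 (24.8% and 26.6%). Scaling by total counts in place of TMM lowers the median ratio of all genes by 0.75 to 0.94 on the log2 scale and leaves 4, 5 and 1 genes enriched in shControl, shADAR1 and shHuR, and 24 depleted in shHuR. With TMM scaling 13 of the 38 genes were above 0 in every line and 21 below 0 in every line, and only EIF2AK3, STC2, VLDLR and CTH had mixed signs. Over 11942 genes the numbers were 4156 above, 5781 below and 2005 mixed. Tested over the 6 libraries with edgeR and the line as block (2 residual degrees of freedom), 12 genes rose and 19 fell, against 30.3% and 31.3% of 16232 genes. Scaling by total counts gave 3 (SLC38A2, ERN1 and DNAJB9) and 25, and leaving out the shADAR1 line gave 4 and 15. Without the block 7 rose and 13 fell.

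SLC38A2 had the highest ratio in shControl and shADAR1, and ERN1 in shHuR; with GC and length trends removed CEBPB (3.11) passed SLC38A2 (2.49) in shControl. The SLC38A2 precipitates held 108025, 155963 and 54759 counts in shControl, shADAR1 and shHuR, from inputs of 19431, 26276 and 37571. These are 8.86-fold, 6.87-fold and 3.37-fold enrichments, and in the edgeR test the log2 change was 2.67 (SE 0.31, adjusted p 5.25e-05). Among the other transporters, SLC7A11 had 5584, 31697 and 11835 counts in the precipitates (log2 enrichment 1.86, 1.79 and 0.99). With GC and length trends removed SLC7A11 stood at 0.20 in shControl, below the limit. The arginine and lysine transporter SLC7A1 had 5326, 3075 and 586 (1.48, 1.88 and 0.98). SLC7A5 had 3406, 1806 and 2226 counts in the inputs and 3961, 3592 and 1324 in the precipitates and rose by 0.95 in the edgeR test (adjusted p 0.0105), although total-count scaling turned this to -0.01. The heavy chain SLC3A2 was depleted in every line, with inputs of 1362, 1077 and 1639 counts and precipitates of 229, 271 and 281. Its shControl value was -0.94 with GC and length trends removed, short of 2-fold. SLC1A5 was depleted as well, with 4498, 5367 and 2692 counts in the inputs and 380, 1066 and 488 in the precipitates. The exchanger's light and heavy chains thus lay on opposite sides of 0 in each of the 3 lines, except that with GC and length trends removed SLC7A11 stood at -0.19 in shHuR, on the same side as SLC3A2 at -1.12.

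ER sensors and ER targets split in the same way. ERN1 had 703, 1262 and 1692 counts in the precipitates and log2 enrichments of 2.21, 2.71 and 2.37, and it rose by 2.53 in the edgeR test (SE 0.30, adjusted p 6.29e-05). DNAJB9 had 717, 1133 and 1349 counts (log2 enrichment 2.19, 1.91 and 1.62), and ATF6 had 1342, 2807 and 2230 (1.2, 1.38 and 1.24). The ATF6 value in shControl was -0.28 with GC and length trends removed. HSPA5 had 668, 756 and 1673 counts in the precipitates and log2 values of -2.32, -2.32 and -1.22. XBP1, with inputs of 1808, 1209 and 1717 counts and precipitates of 301, 310 and 240, and HERPUD1, an ER degradation factor with inputs of 2327, 1429 and 2112 and precipitates of 299, 256 and 353, were depleted in all 3 lines.

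Regulators were mostly depleted. ATF4 had 1031, 760 and 836 counts in the precipitates, log2 values of -2.91, -2.59 and -1.51, and fell by 2.24 in the edgeR test (SE 0.33, adjusted p 0.000225). DDIT3 had 8, 26 and 69 counts in the precipitates, and its 8 counts against 515 in the shControl input make a log2 value of -5.34 with an interval of -6.56 to -4.35. NUPR1 had 175, 93 and 148 counts, and fell by 3.02 in the edgeR test (adjusted p 0.00013). TRIB3 had 123, 99 and 78 counts, and ATF3 had 33, 106 and 19. The C/EBP partners of ATF4 stood on the other side. CEBPB, a transcription factor of inflammatory genes, had inputs of 3999, 2590 and 3187 counts and precipitates of 7639, 9847 and 2490, and rose by 1.64 in the edgeR test (adjusted p 0.000878). CEBPG had inputs of 1708, 909 and 965 and precipitates of 2261, 1546 and 456; its rise of 0.83 in the edgeR test (adjusted p 0.034) became -0.13 with total-count scaling, and its shControl value was -0.38 with GC and length trends removed.

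The serine and one-carbon enzymes were divided evenly in the edgeR test, with 3 rising and 3 falling. PSPH, the last enzyme of serine synthesis, had inputs of 1142, 447 and 577 counts and precipitates of 1851, 957 and 510 (log2 1.37, 1.31 and 1.03). ALDH1L2, a mitochondrial folate enzyme, had inputs of 3749, 3222 and 2433 and precipitates of 5032, 7230 and 3432 (log2 1.10, 1.38 and 1.70), with -0.33 in shControl once GC and length trends were removed. MTHFD2 rose by 0.72 in the edgeR test (adjusted p 0.0352) and stood at -0.24 with total-count scaling. PHGDH had 207, 193 and 51 counts in the precipitates, PSAT1 had 904, 611 and 186, and SHMT2 had 1184, 773 and 341, and these 3 fell in the edgeR test. With GC and length trends removed, the shControl value of SHMT2 was -0.43, below the limit. ASNS, with precipitates of 112, 89 and 39 counts, fell by 2.65 in the edgeR test (adjusted p 0.000135), and PYCR1, with 463, 553 and 542, fell by 1.91. CBS had 521, 455 and 255 counts in the precipitates, and its log2 change of -0.87 gave an adjusted p of 0.0598 in edgeR. Its shControl value of -1.93 became -0.62 with GC and length trends removed.

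Of the 5 stress effectors and 4 eIF2α regulators, none rose in the edgeR test and 2 of each role fell. CHAC1, which degrades glutathione, had inputs of 5374, 4914 and 2653 counts and precipitates of 616, 1369 and 673 and fell by 1.52 in the edgeR test (adjusted p 0.003). With GC and length trends removed its log2 values in the 3 lines were -0.91, -0.94 and -0.75, short of 2-fold. SESN2, an inhibitor of mTORC1 signalling, had inputs of 1828, 1076 and 1703 and precipitates of 282, 414 and 443 and fell by 1.2. STC2, with its large differences in RNA level, had precipitates of 2990, 8707 and 13516 counts and log2 values of 0.28, -0.04 and -0.11. DDIT4 had 1590, 1224 and 470 counts in the precipitates and did not pass (edgeR adjusted p 0.101). With GC and length trends removed DDIT4 stood past 2-fold enriched in every line (log2 2.26, 2.14 and 1.14). EIF2AK1, with inputs of 4997, 2763 and 3977 and precipitates of 1684, 924 and 1041, and EIF2AK4, with inputs of 7265, 4178 and 6509 and precipitates of 2229, 1557 and 1900, fell by 0.89 and 0.84. PPP1R15A had 1706, 1305 and 1224 counts in the precipitates and an edgeR adjusted p of 0.0514.

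**Figure D4:**
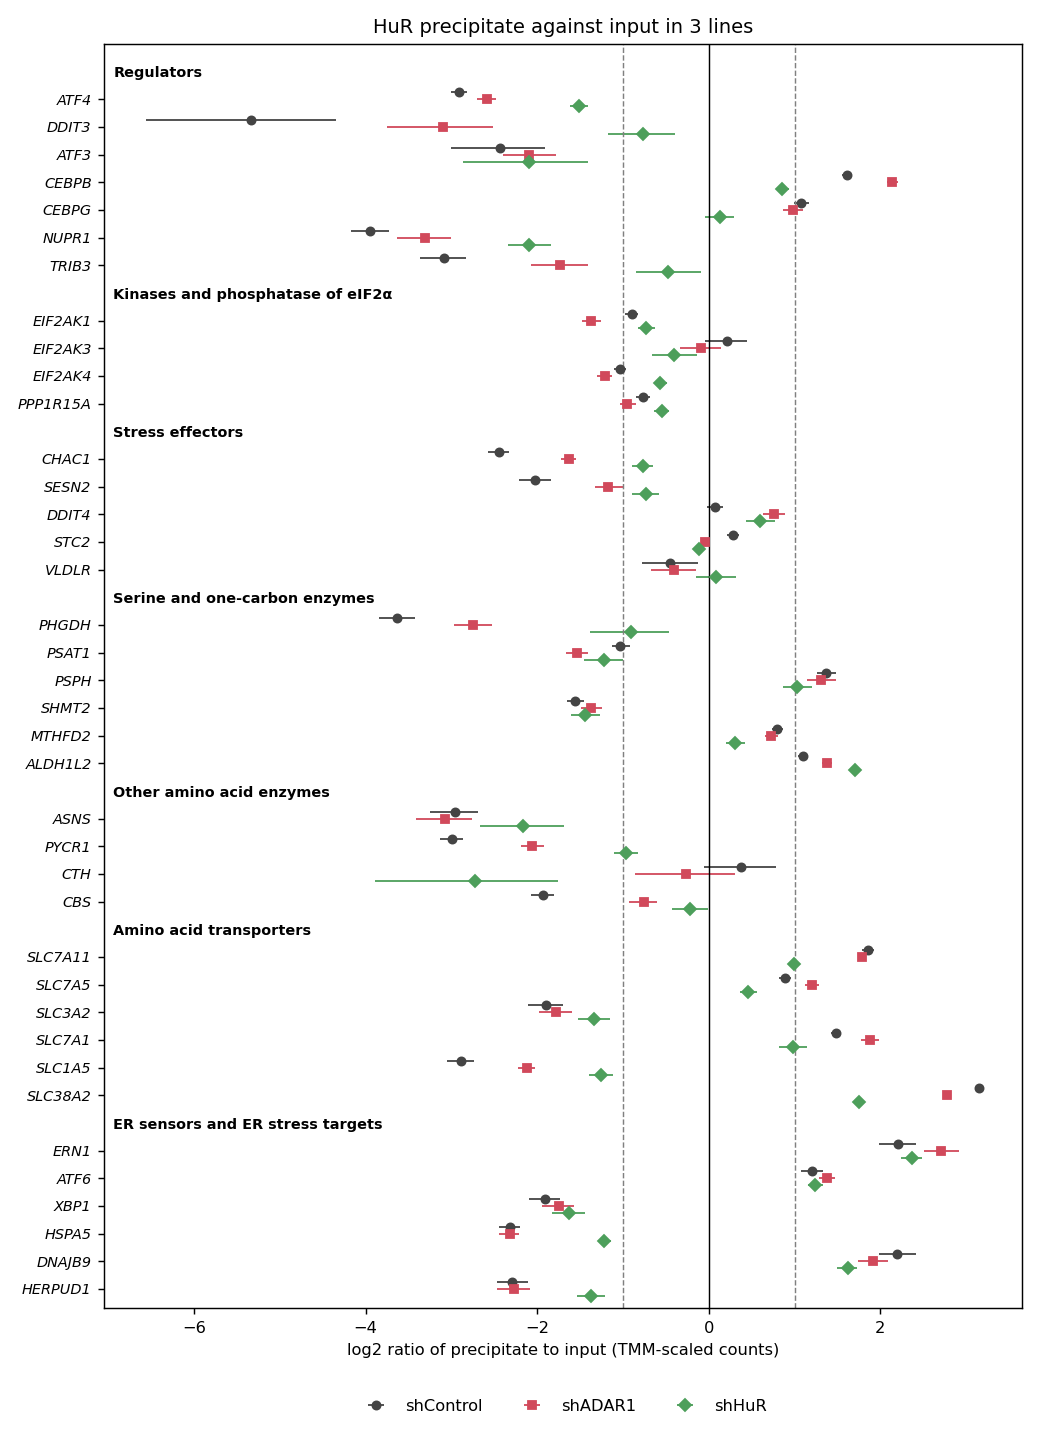
Rows are the 38 genes by role, and the horizontal axis is the log2 ratio of HuR precipitate to input in shControl, shADAR1 and shHuR, with bars for the 95% counting interval and dashed lines at 2-fold. SLC38A2, ERN1, DNAJB9 and ATF6 are right of the upper line in all 3 lines, and for many depleted genes, such as TRIB3 and PHGDH, the shHuR point lies nearest to 0.

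Differences in enrichment between lines were read among genes with a mean log2 enrichment of at least 1, at 1.5-fold. Between shADAR1 and shControl 0 of the 11 members that met this condition were called in either direction, against 13.1% higher and 8.65% lower of 3724 genes. With GC and length trends removed CEBPB turned from 0.53 to -0.6 and was called lower in shADAR1. SLC7A11, with a higher RNA level in shADAR1, had a log2 difference in enrichment of -0.06 (interval -0.14 to 0.01). Between shHuR and shControl 3 of the 9 members that met it were lower and 1 higher, against 26.1% and 25.2% of 3241 genes. SLC38A2 was 2.63-fold less enriched in shHuR (log2 difference -1.40, interval -1.43 to -1.37), SLC7A11 1.83-fold less and CEBPB 1.69-fold less. The difference of SLC7A11 was -0.39 with GC and length trends removed, below the limit, and that of CEBPB was -2.64 in place of -0.75. ALDH1L2 was 1.52-fold more enriched, a call that ended with total-count scaling (0.41) or DESeq2 size factors (0.53). With GC and length trends removed its difference was 0.96. Its enrichments (-0.33 in shControl and 0.62 in shHuR) then missed the condition on the mean. ERN1 and ATF6 differed by 0.16 (-0.08 to 0.41) and 0.04 (-0.11 to 0.18). Their ratio of precipitate to input in the line with less ELAVL1 RNA was thus close to that in shControl. These ratios are scaled within each line, so the amount of RNA recovered was not measured.

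Without the condition on enrichment, 10 members were higher and 1 lower in shADAR1 (24% and 9.45% of all genes), and 14 higher and 6 lower in shHuR (41.6% and 21.5%). These were mostly depleted genes that came closer to 0. DDIT3 differed 23.7-fold between shHuR and shControl (log2 4.56, interval 3.49 to 5.64), on 8 precipitate counts in shControl and 69 in shHuR. PHGDH differed 6.59-fold, on precipitates of 207 and 51 counts and inputs of 4079 and 221. Precipitate and input of PHGDH were both lower in shHuR, and the input more so. CTH went the other way, 8.58-fold lower in shHuR, with precipitates of 90, 45 and 9 counts. For shADAR1 against shControl, DDIT3 and TRIB3 were the only ones of the 10 higher genes still past 1.5-fold with GC and length trends removed.

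Members with more AU-rich pentamers were on the whole recovered better. Counting AUUUA pentamers in the 3′ untranslated region of 1 principal transcript per gene, 10 of the 38 genes had none, 15 had 1 to 4 and 13 had 5 or more. Their median log2 enrichments in shControl were -2.46, -1.03 and 1.10, and over all 11766 genes the same classes had -2.27, -0.74 and 0.98. Across the 38 genes the number of pentamers and the shControl enrichment had a Pearson r of 0.53 and a Spearman rho of 0.56, and in shHuR 0.48 and 0.43. Over all genes these were 0.44 and 0.56 in shControl and 0.3 and 0.37 in shHuR, so the trend is not particular to the group. The points share libraries, and genes are not independent replicates. Length of the region gave 0.49 and 0.48 in shControl (0.41 and 0.52 over all genes). GC content of the transcript gave -0.38 and -0.41 (-0.46 and -0.46 over all genes). The separate parts of pentamers, length and GC content were not tested. SLC7A11 had 32 pentamers in 7859 bases, SLC38A2 had 11 in 2922 and ALDH1L2 13 in 4634. ATF4, PHGDH, ASNS, SLC3A2, TRIB3, PYCR1, SHMT2 and SESN2 had none and were depleted in shControl. PSPH had none and was enriched, and DDIT4 had none and stood at 0.07 (2.26 with GC and length trends removed). NUPR1 had 5 in an annotated region of 4975 bases, HERPUD1 had 5 in 1573, and both were depleted. For NUPR1 that region is the longest annotated one of its top-ranked transcripts. Its 9.98 CPM and 15.6 FPKM in the RNA-seq control place the counted RNA on a transcript shorter than this region. Its pentamer number and its place in the class of 5 or more may therefore not hold for the RNA measured. In that class the same limit applies to SLC38A2 (1180 CPM, 438 FPKM), ERN1 (5.05, 1.17) and ALDH1L2 (15.2, 3.78). It also applies to MTHFD2 (69.7, 44.6), VLDLR (18.6, 4.6) and HERPUD1 (38.1, 26.2). For these genes the levels give a length near or below that of the annotated region.

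**Figure D5:**
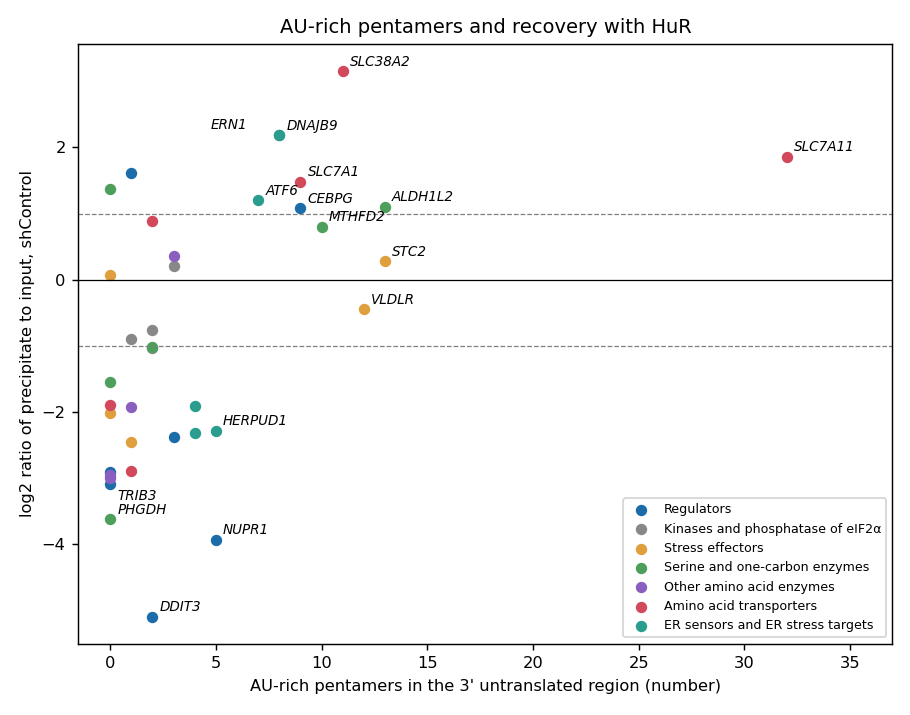
The horizontal axis is the number of AU-rich pentamers in the annotated 3′ untranslated region and the vertical axis the log2 ratio of precipitate to input in shControl, 1 point per gene coloured by role, with dashed lines at 2-fold. Genes with 7 or more pentamers are all above 0 apart from VLDLR at -0.45, and genes with fewer spread from 1.61 down to -5.09 (with a prior count of 2 added).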

How the data were processed

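Per the labels' protocols, libraries came from the KAPA RNA HyperPrep kit and precipitates from the Magna RIP kit. The deposited values are expected counts per gene from RSEM 1.2.3 on hg19 (GRCh37 is also named for the RIP), per the submitters' processing notes, which also name DESeq2. They are whole numbers and entered the models as they were. The deposited FPKM of the RNA-seq served for levels between genes and as an alternative (pseudocount 0.1). For aligner, annotation and strand: not given in the sources used here.

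The members, roles, lists and tests were chosen with earlier results of these data known. The text describes every member; from other lists it names at most the 4 called genes with the largest difference. Groups came from sample titles. Pairs of libraries were compared by TMM-scaled counts (prior count 2 for calls and medians) with exact conditional binomial intervals. TMM factors were computed over the RNA-seq pair, over the 3 inputs and over each precipitate with its input. Tests used edgeR 4.0.16 (filterByExpr, Benjamini-Hochberg adjustment at 0.05) in R 4.3.3, with experiment or line as block, which pairs libraries of the same experiment or line by the labels. Nothing says that libraries came from separate cultures, so the spread behind a p-value may be technical. The tests were checked on simulated counts. Alternatives were total-count scaling, DESeq2 1.42.0, other filters and prior counts, no block, leaving out each line, and removal of GC and length trends (mgcv 1.9.3). Pentamers were counted in GENCODE 29, taking the APPRIS principal transcript with the longest region.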

Additional observations from a re-analysis of the deposited data

Results flagged for a closer look

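NUPR1 differed between the 2 ADAR1 knockdown experiments. Its log2 ratio was 1.45 in the RNA-seq knockdown (391 and 1404 counts) and -1.53 in the shADAR1 input (4299 and 1071 counts), a gap of 2.99, and the single pair of each experiment moved in opposite directions. The difference was not tested, since each experiment held 1 pair. The RNA-seq control held 9.98 CPM (counts scaled to a common library total) of NUPR1 and the shControl input 117, and the knockdown libraries 27.7 and 37.7.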

How the results depend on the processing

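The numbers of calls on RNA level were stable: every count of members higher or lower in the 3 comparisons stayed within 1.5 times its value under the alternatives run. The genes called did change with GC and length trends removed. In shHuR, ATF4 (-0.89), SHMT2 (-0.93), PYCR1 (-0.56) and SLC38A2 (0.86) lost their calls and MTHFD2 (-1.01) gained one. ATF3 (0.93) lost its call in the RNA-seq and DDIT4 (-0.55) in shADAR1. Counts from the precipitates depended on scaling. With total counts, members enriched were 4 in shControl, 5 in shADAR1 and 1 in shHuR, 24 were depleted in shHuR, and 3 rose in the edgeR test, where CEBPG (-0.13), MTHFD2 (-0.24) and SLC7A5 (-0.01) turned below 0. With GC and length trends removed, CEBPG (-0.38), ALDH1L2 (-0.33) and ATF6 (-0.28) turned below 0 in shControl. DDIT4 (2.26) and SLC7A5 (1.48) passed 2-fold upward there, and EIF2AK3 (-1.01) and VLDLR (-1.57) downward. CHAC1 (-0.91), SLC3A2 (-0.94), CBS (-0.62) and SHMT2 (-0.43) fell short of it. In shADAR1 1 member was called lower than in shControl, CEBPB, at -0.6 in place of 0.53. In shHuR 0 were called higher, as with total counts and DESeq2 size factors. The ALDH1L2 difference was 0.96 with trends removed, and only the condition on enrichment was missed. Without the condition on enrichment, 10 members were higher and 1 lower in shADAR1, and 14 higher and 6 lower in shHuR. SLC7A11 was the 1 member that rose in the knockdown test with DESeq2 and without a filter. Without the line as block 7 members rose in the precipitate test, and without the experiment as block 0 rose in the knockdown test. Leaving out 1 line left 4 to 12 rising and 15 to 21 falling. The cause of these shifts was not tested. Precipitates of DDIT3 and CTH held as few as 8 and 9 counts, which limits their ratios.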
